A study of Homo sapiens with 6 samples.

Results

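The 10 genes described here are skeletal and cardiac muscle genes, namely the myogenic factors MYOD1, MYOG, MYF5 and MYF6, the sarcomere genes ACTA1, ACTC1, MYH6, MYH7 and TNNT2, and the intermediate filament gene DES. They were taken by name, and peaks were assigned to the gene with 5 kb on both sides, out of 19974 protein-coding genes on chromosomes 1 to 22 and X that were treated in the same way. The peaks come from chromatin immunoprecipitation and sequencing in ACHN, an established human kidney cancer cell line, with antibodies against EZH2 and against H3K27me3. Cells of genotype ZCCHC8-KO (KO) were compared with cells of genotype ZCCHC8-WT (WT); each genotype had 1 library per antibody and 1 input library, against which its peaks were called. ZCCHC8 is the scaffold of NEXT, a nuclear complex that delivers RNAs to the exosome for decay, and the series asks how NEXT bears on H3K27me3. The sources used here do not say whether the KO cells were a clone or a pool. With 1 library per group, differences between genotypes could not be set against replicates, and no test was made of them.

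The peak lists hold positions, widths and a score per peak but no read counts, so the read depth behind them and the expression of these genes are unknown, and the identity of the cells could not be checked against markers. The lists held 69840 H3K27me3 peaks in KO and 93095 in WT, and 19566 EZH2 peaks in KO and 30734 in WT. The KO/WT ratio of peak numbers was 0.750 for H3K27me3 and 0.637 for EZH2. On the 6 chromosomes that carry the 10 genes, this ratio ran from 0.694 (chromosome 12) to 0.957 (chromosome 15) for H3K27me3 and from 0.602 (chromosome 11) to 0.724 (chromosome 1) for EZH2.

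H3K27me3 is placed by Polycomb repressive complex 2, in which EZH2 is the methyltransferase. In cells that are not muscle, Polycomb is known to hold many lineage regulators silent, and genes of terminal muscle differentiation are among the classic examples, since EZH2 leaves their regulatory regions when myoblasts differentiate. The myogenic factors are basic helix-loop-helix proteins that bind the E-box. MYOD1 and MYF5 act first, in commitment, MYOG acts later, in differentiation, and MYF6 acts in both steps. Mammalian Polycomb complexes are drawn to DNA rich in unmethylated CpG, and for this reason the CpG content of the promoters is shown.

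RefSeq promoter sequences (GRCh38.p14, 250 bases before to 50 after a gene start, 300 bases each) were at hand for 7 of the 10 genes, in 9 sequences. The following 4 are shown because the first 3 had the nearest peaks to a promoter and the last belongs to a gene with no peak in its window in any list. Each is written 5′ to 3′ on the strand of the gene, with every CpG in capitals. They lie at chr1:229434045-229434344 (ACTA1, minus strand), chr1:203085963-203086262 (MYOG, minus strand), chr12:80707384-80707683 (MYF6, plus strand) and chr12:80716662-80716961 (MYF5, plus strand).
ACTA1: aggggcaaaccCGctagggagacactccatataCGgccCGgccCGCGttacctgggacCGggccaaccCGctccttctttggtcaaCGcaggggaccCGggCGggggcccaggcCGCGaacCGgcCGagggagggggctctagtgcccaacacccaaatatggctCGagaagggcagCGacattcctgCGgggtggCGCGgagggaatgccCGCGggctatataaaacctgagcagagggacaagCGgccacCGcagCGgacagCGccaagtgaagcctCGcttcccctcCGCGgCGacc
MYOG: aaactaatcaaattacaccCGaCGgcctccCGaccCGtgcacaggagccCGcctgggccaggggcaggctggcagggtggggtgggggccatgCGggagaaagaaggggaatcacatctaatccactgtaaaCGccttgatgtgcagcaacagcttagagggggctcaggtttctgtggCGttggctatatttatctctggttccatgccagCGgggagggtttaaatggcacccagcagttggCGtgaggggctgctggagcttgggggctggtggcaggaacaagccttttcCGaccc
MYF6: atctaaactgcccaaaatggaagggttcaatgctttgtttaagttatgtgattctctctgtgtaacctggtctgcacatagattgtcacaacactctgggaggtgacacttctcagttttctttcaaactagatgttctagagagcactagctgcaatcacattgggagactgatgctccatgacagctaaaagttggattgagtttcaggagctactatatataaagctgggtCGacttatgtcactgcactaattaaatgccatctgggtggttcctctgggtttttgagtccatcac
MYF5: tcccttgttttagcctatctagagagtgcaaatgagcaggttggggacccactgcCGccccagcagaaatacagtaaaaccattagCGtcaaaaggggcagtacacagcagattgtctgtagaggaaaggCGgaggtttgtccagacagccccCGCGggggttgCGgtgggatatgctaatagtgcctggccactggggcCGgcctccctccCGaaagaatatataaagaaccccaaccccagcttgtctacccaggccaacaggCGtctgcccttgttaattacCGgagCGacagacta

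ACTA1 had 29 CpG in these 300 bases, and 68.7% of 22132 promoters of protein-coding genes had fewer. MYOG and MYF5 had 11 each, below the median of 21, and MYF6 had 1, which only 1.95% of promoters undercut. Among the promoters not shown, TNNT2 had 8, MYH6 had 4 and the 3 alternative starts of ACTC1 had 2, 7 and 16. The E-box CANNTG, which reads the same on both strands, was found in promoters of 6 of the 7 genes and in 65.1% of all promoters. Its form CAGCTG, which is included in the count of CANNTG, was found in 2 of the 7 genes, ACTC1 and TNNT2, and in 18.0% of all promoters. The TATA box letters TATAAA were found on either strand in 5 of the 7 genes and in 9.46% of all promoters. In these 3 comparisons the 7 genes were counted per gene, over any of their sequences, and all promoters per sequence. The 2 units are not the same, since ACTC1 has 3 sequences.

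No peak of any of the 4 lists touched one of the 9 promoter sequences. Promoters so defined were rarely touched anywhere: of 15812 protein-coding genes with such a sequence, 0.601% had a peak on it in the H3K27me3 KO list, 0.841% in the H3K27me3 WT list, 0.557% in the EZH2 KO list and 0.734% in the EZH2 WT list. The nearest peak lay 637 bp from the MYF6 promoter (EZH2, WT), 740 bp from that of MYOG (H3K27me3, WT) and 1016 bp from that of ACTA1 (EZH2, WT).

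H3K27me3 was listed at 4 of the 10 genes in KO (23.2% of all protein-coding genes) and at 4 in WT (26.1% of all protein-coding genes). EZH2 was listed at 5 in KO (18.4% of all genes) and at 5 in WT (27% of all genes). Of the 10 genes, 7 had a peak in at least 1 list, as had 43.1% of all genes, while MYF5, MYH6 and MYH7 had none in any. Only MYOG and ACTA1 had a peak in all 4 lists, a state that 8.83% of all genes shared. The 10 windows are 11.8 to 36.3 kb long and form 8 separate stretches of 186.4 kb in all, because those of MYF5 and MYF6 and those of MYH6 and MYH7 overlap. Peaks stood denser there than in the windows of all protein-coding genes. For H3K27me3 there were 4.29 peaks per 100 kb in KO (1.93 in all gene windows) and 5.37 in WT (2.58 in all gene windows). For EZH2 there were 3.22 in KO (0.615 in all gene windows) and 3.22 in WT (1.06 in all gene windows).

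Equal counts in KO and WT came only in part from the same genes. Of the 10 genes, 2 had H3K27me3 in KO alone (MYOD1 and TNNT2; 5.04% of all genes), 2 in WT alone (ACTC1 and DES; 7.91%) and 2 in both (MYOG and ACTA1; 18.2%). For EZH2, 2 had it in KO alone (MYOD1 and DES; 5.76%), 2 in WT alone (MYF6 and ACTC1; 14.4%) and 3 in both (MYOG, ACTA1 and TNNT2; 12.6%). None of the 8 KO and 10 WT H3K27me3 peaks in the windows overlapped a peak of the other genotype, and none of the 6 KO and 6 WT EZH2 peaks did. In the windows of all protein-coding genes, 21.2% of KO and 15.7% of WT H3K27me3 peaks and 11.1% of KO and 6.53% of WT EZH2 peaks overlapped the other genotype. Among genes marked in both genotypes, 50.9% of 3628 for H3K27me3 and 23% of 2525 for EZH2 had at least 1 such overlap inside the window. At such shares, lists with 6 to 10 peaks in the windows would hold few overlaps or none. The lack of overlap is therefore not read as a trait of these 10 genes. How far repeats of the same genotype would overlap is unknown.

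**Figure D1:**
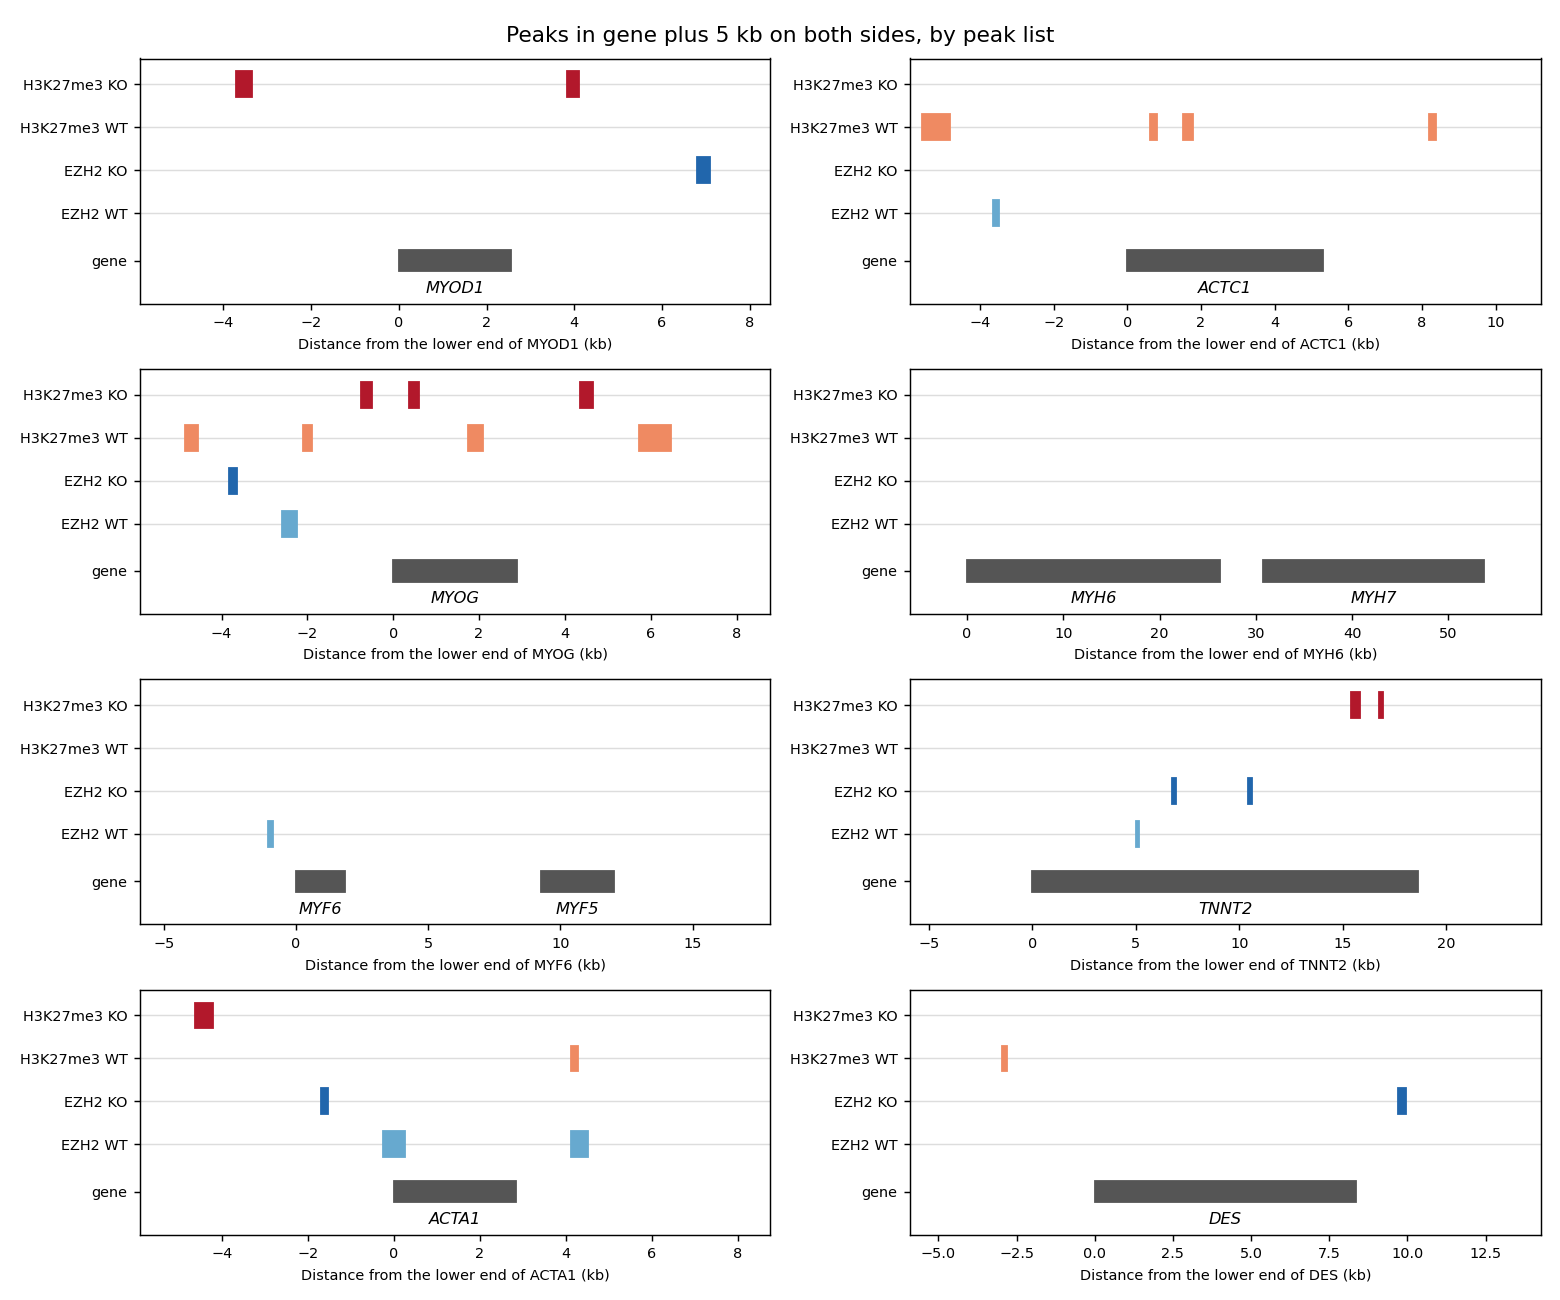
Peaks of the 4 lists in the windows of the 10 genes, drawn to scale; the horizontal axis is the distance in kb from the end of the gene with the lower coordinate, grey bars are genes and coloured bars are peaks. No KO peak stands directly above a WT peak of the same antibody in any of the 8 panels, and the MYH6 and MYH7 panel is empty.

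The 30 peaks in these windows were 159 to 772 bp wide and had scores of 4 to 12. The authors gave each peak a score, whose definition is unknown. Its lowest value was 4 in both KO lists and 5 in both WT lists, and thresholds on it may not mean the same in KO and WT. The peak names carry a p setting of 1e-3, and how it was applied is not stated in the sources used here. H3K27me3 peaks had a median width of 275 bp in KO and 233.5 bp in WT, and EZH2 peaks of 192.5 bp in KO and 255.5 bp in WT. Median H3K27me3 scores were 5 in KO and 8 in WT, against list medians of 6 in KO and 7 in WT. Median EZH2 scores were 5.5 in KO and 8 in WT, against list medians of 5 in KO and 7 in WT. A score of 7 or more was held by 19946 of the 69840 H3K27me3 peaks in KO and 65017 of the 93095 in WT, and by 4148 of the 19566 EZH2 peaks in KO and 20138 of the 30734 in WT. Counting only such peaks, 1 of the 10 genes had H3K27me3 in KO (MYOD1), where 11.9% of all genes did, and 4 had it in WT, where 22.2% of all genes did. Likewise, 1 had EZH2 in KO (TNNT2), where 5.42% of all genes did, and 3 had it in WT, where 20.8% of all genes did.

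Of the myogenic factors, MYOD1 was marked in KO alone. MYOD1, which can turn fibroblasts into muscle, lies on chromosome 11 from 17719571 to 17722136. H3K27me3 covered 5.05% of its window in KO, in 2 peaks, and none of it in WT. One KO peak, at 17715848 to 17716219, was 372 bp wide and had a score of 8, which 14.1% of the KO list reached; the other, at 17723403 to 17723665, had the lowest score of that list, 4. EZH2 covered 2.40% in KO, in 1 peak of 301 bp at 17726369 to 17726669, and none in WT. The WT lists were not empty nearby: the nearest WT peaks lay 5.05 kb (H3K27me3) and 5.70 kb (EZH2) from the gene, just outside the window, and 78 H3K27me3 peaks in KO and 79 in WT lay within 500 kb. The call at MYOD1 thus rests on where the window ends.

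MYOG was the most covered of the 10 genes for H3K27me3 in both genotypes. MYOG encodes myogenin, needed for myoblasts to fuse into fibres, and lies on chromosome 1 from 203083129 to 203086012; its window takes in the end of PPFIA4 and the antisense long non-coding RNA gene MYOPARR. H3K27me3 covered 5.89% of the window in KO, in 3 peaks, and 12.6% in WT, in 4 peaks. Of all protein-coding genes, 3.12% were covered more in KO and 1.27% in WT. The KO peaks lay 501 bp downstream of the gene, inside it, and 1471 bp upstream of it. The WT peaks lay 4538 and 1893 bp downstream, inside the gene, and, with 744 bp the widest of the 4, 2832 bp upstream; the one farthest downstream overlaps PPFIA4. KO peaks lay between WT peaks along the locus, with gaps of 1074 to 1145 bp between each KO peak and the nearest WT peak.

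EZH2 at MYOG was a single narrow peak in each genotype. It covered 1.54% of the window in KO, in a peak of 198 bp at the lowest score of the list, and 2.57% in WT, in a peak of 331 bp with a score of 6. Both lay downstream of the gene, 1055 bp apart. In WT an H3K27me3 peak stood 154 bp from the EZH2 peak without touching it, and in KO the nearest stood 2891 bp away.

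MYF5 and MYF6 lie next to each other on chromosome 12, from 80716912 to 80719671 and from 80707634 to 80709474. MYF5 had no peak in its window in any list. MYF6, also called MRF4, had 1 EZH2 peak in WT, of 180 bp, 887 bp upstream of the gene, covering 1.52% of the window, and no EZH2 in KO; it had no H3K27me3 in either genotype. Within 500 kb of MYF5, 0 H3K27me3 peaks were listed in KO and 30 in WT, and 4 EZH2 peaks in KO and 27 in WT. Over all protein-coding genes, 5.81% had no KO H3K27me3 peak within 500 kb, and 46.9% had 4 or fewer KO EZH2 peaks, with a median of 5. The count of EZH2 peaks in KO was thus a common one. Of 8080 genes with 30 or more WT H3K27me3 peaks within 500 kb, 0.334% had none in KO. Of 2282 genes with 27 or more WT EZH2 peaks, 2.85% had 4 or fewer in KO. The limits in these last 2 shares are the counts seen at MYF5 itself.

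From MYF6 and MYF5 the nearest KO H3K27me3 peaks lay 565.5 and 959.1 kb away, on the left and right. The stretch between them, 1537 kb from 80142122 to 81678761, was by its definition free of KO H3K27me3 peaks and held 169 in WT. It held 7 EZH2 peaks in KO and 45 in WT. It takes in 7 protein-coding genes, OTOGL and PTPRQ on the left and LIN7A, ACSS3 and PPFIA2 on the right of the MYF6 and MYF5 pair. Most of the WT H3K27me3 peaks stood at the right end, with 66 and 80 in the 250-kb bins from 500 to 750 kb and from 750 to 1000 kb right of MYF6, where KO had 0 and 1. In the 250 kb just left of MYF6 there were 0 in KO and 1 in WT, and in the 250 kb to its right, which hold MYF5, 0 in KO and 18 in WT. Over these same 2 bins EZH2 peaks numbered 1 and 1 in KO and 11 and 7 in WT. The lists do not show whether the stretch was covered by reads in the KO libraries, and this was not tested.

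**Figure D2:**
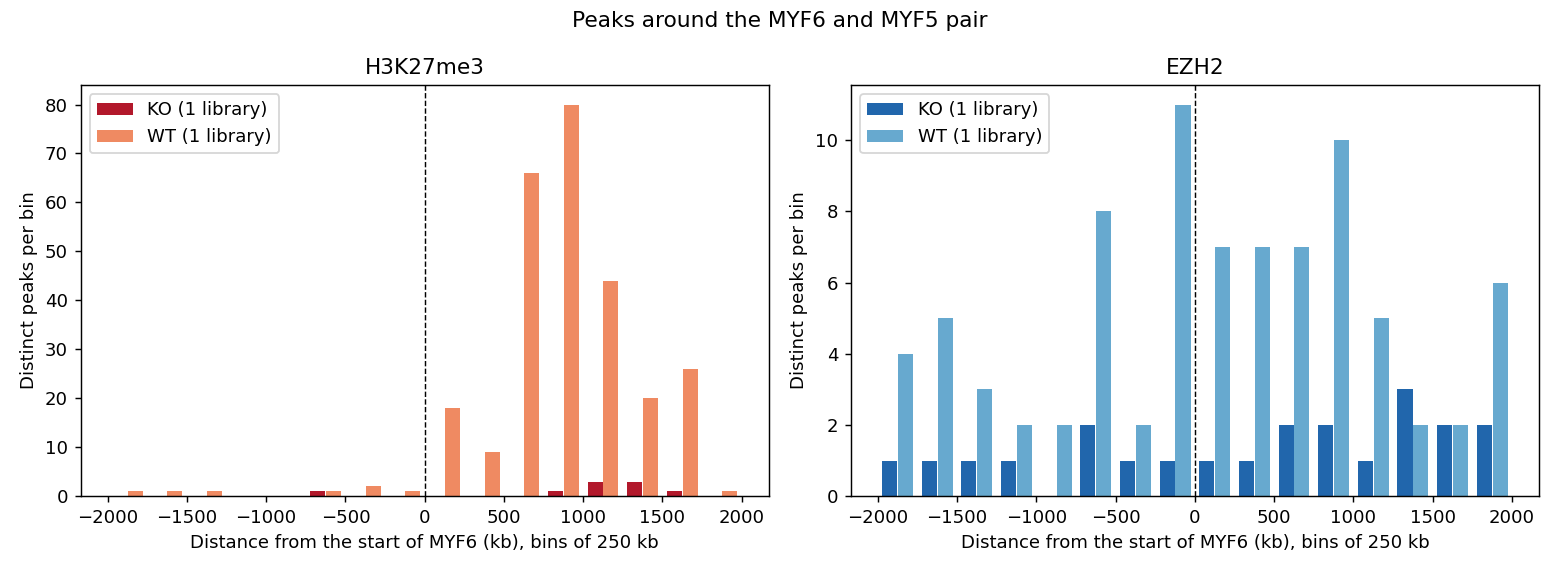
Number of distinct H3K27me3 (left) and EZH2 (right) peaks per 250-kb bin over 2000 kb on both sides of the start of MYF6, marked by the dashed line, in KO and WT with 1 library each. WT H3K27me3 peaks reach 80 in the bin from 750 to 1000 kb, where KO has 1, and in KO no bin has more than 3 peaks of either antibody.

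The sarcomeric actins differed from each other. ACTA1, the actin of skeletal muscle, lies on chromosome 1 from 229431245 to 229434094. EZH2 covered 1.32% of its window in KO, in 1 peak of 169 bp downstream of the gene, and 7.04% in WT, in 2 peaks. Of all genes, 4.39% were covered more by EZH2 in KO and 0.606% in WT. The WT peak at 229430998 to 229431503 crossed the downstream end of the gene. The other, at 229435361 to 229435759, lay 1266 bp upstream and had a score of 12, which 3.66% of the WT list reached. H3K27me3 covered 3.22% of the window in KO, in 1 peak 4212 bp downstream, and 1.35% in WT, in 1 peak of 173 bp upstream at 229435363 to 229435535.

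That WT H3K27me3 peak upstream of ACTA1 lay within the EZH2 peak, and this was the only place in the 10 windows where peaks of the 2 antibodies overlapped. Of the EZH2 peaks in the windows, 0 of 6 in KO and 1 of 6 in WT overlapped H3K27me3, against 17.8% in KO and 13.2% in WT over the windows of all protein-coding genes. Both antibodies were listed somewhere in the window of 4 genes in KO (MYOD1, MYOG, ACTA1 and TNNT2; 12% of all genes) and of 3 in WT (MYOG, ACTA1 and ACTC1; 16.1% of all genes). The lists of a genotype share their input library. Within 500 kb of ACTA1 there were 135 H3K27me3 peaks in KO and 93 in WT, while EZH2 peaks numbered 29 in KO and 42 in WT.

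ACTC1, the actin of heart muscle, was marked in WT alone. It lies on chromosome 15 from 34790230 to 34795549, inside the long non-coding RNA gene GJD2-DT. H3K27me3 covered none of its window in KO and 5.25% in WT, in 4 peaks, of which 2 lay inside the gene. The widest, 772 bp at 34784635 to 34785406, straddled the lower edge of the window and had a score of 12, which 4.85% of the WT list reached. EZH2 covered none in KO and 1.15% in WT, in 1 peak of 176 bp. The nearest KO peaks lay 7.96 kb (H3K27me3) and 278.4 kb (EZH2) from the gene. That KO H3K27me3 peak stood 2369 bp from the widest WT peak, and a window with 10 kb on both sides would take it in. For H3K27me3 the call at ACTC1 thus also rests on where the window ends. Within 500 kb there were 44 H3K27me3 peaks in KO and 64 in WT, and 3 EZH2 peaks in KO and 16 in WT.

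The heart myosin genes MYH6 and MYH7, which lie side by side on chromosome 14 from 23381987 to 23408273 and from 23412740 to 23435660, had no peak in any list. They encode the alpha and beta heavy chains and carry the microRNA genes MIR208A and MIR208B. These are the longest windows of the 10, at 36.3 and 32.9 kb. The nearest H3K27me3 peak to MYH6 lay 7.95 kb away in KO and 107.8 kb away in WT, and the nearest EZH2 peak 201.9 kb away in KO and 158.1 kb away in WT. Within 100 kb of MYH6, 6 H3K27me3 peaks were listed in KO and 0 in WT, and no EZH2 peak in either. Within 500 kb, 25 H3K27me3 peaks were listed in KO and 19 in WT, and 5 EZH2 peaks in KO and 1 in WT.

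TNNT2, cardiac troponin T, had H3K27me3 in KO alone and EZH2 in both genotypes. It lies on chromosome 1 from 201359014 to 201377680, and its window reaches LAD1. H3K27me3 covered 2.19% of the window in KO, in 2 peaks inside the gene, 1792 and 3022 bp from its start, and none in WT, where the nearest peak lay 15.0 kb from the gene. EZH2 covered 1.29% in KO, in 2 peaks, and 0.555% in WT, in 1 peak of 159 bp with a score of 9. All 3 EZH2 peaks lay inside the gene, more than 8 kb from its start. Around TNNT2, 17 H3K27me3 peaks were listed in KO and 7 in WT within 100 kb, and 36 in KO and 20 in WT within 500 kb. EZH2 had 5 peaks in KO and 9 in WT within 100 kb, and 15 in KO and 13 in WT within 500 kb.

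DES encodes desmin, which ties sarcomeres together, and lies on chromosome 2 from 219418377 to 219426734. It had 1 EZH2 peak in KO and none in WT, and 1 H3K27me3 peak in WT and none in KO. The KO EZH2 peak, 227 bp wide with a score of 5, covered 1.24% of the window on the higher-coordinate side. The WT H3K27me3 peak, 176 bp wide with a score of 9, covered 0.959% on the other side. Neither had a near counterpart, since the nearest EZH2 peak in WT lay 55.3 kb and the nearest H3K27me3 peak in KO 63.8 kb from the gene.

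**Figure D3:**
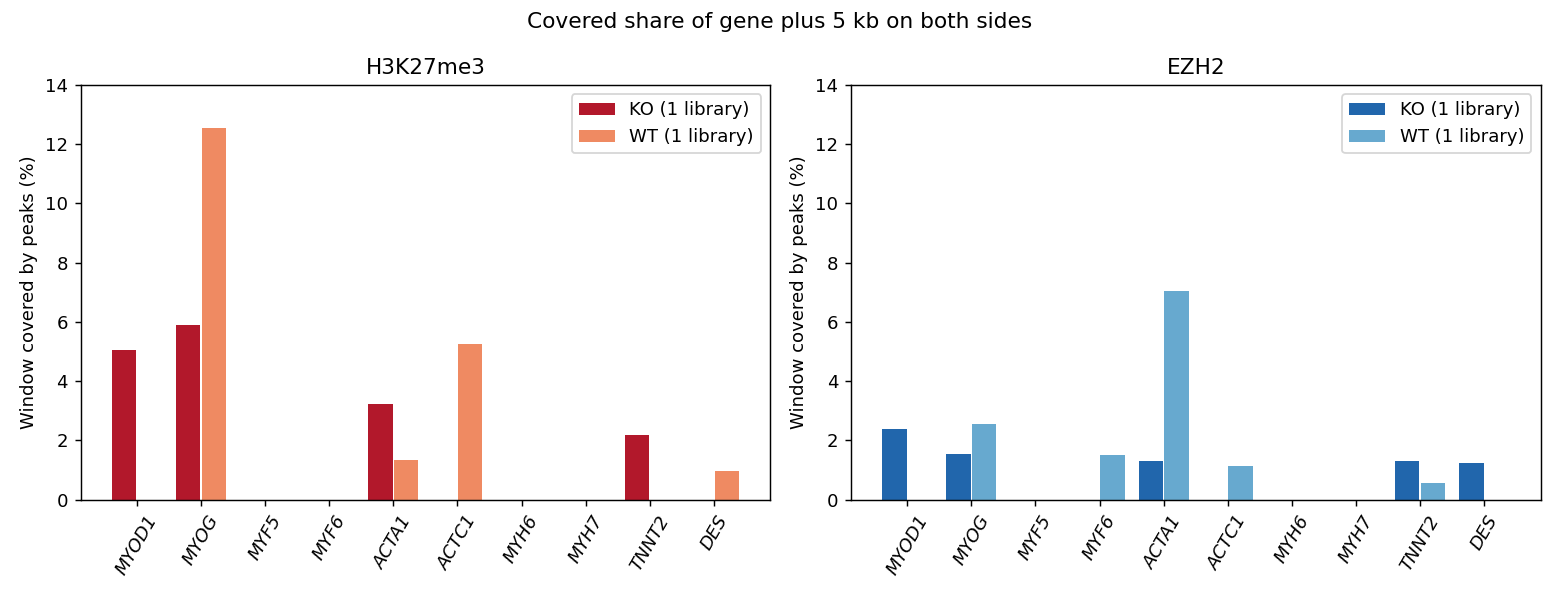
Percent of each window (gene plus 5 kb on both sides) covered by H3K27me3 (left) and EZH2 (right) peaks in KO and WT, 1 library each, so no error bars. MYOG has the highest H3K27me3 share in each genotype (5.89% in KO, 12.6% in WT), EZH2 is highest at MYOD1 in KO (2.40%) and at ACTA1 in WT (7.04%), and MYF5, MYH6 and MYH7 are at 0 throughout.

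Over the 10 genes, the covered share was higher in KO at 3 and lower at 3 for H3K27me3, and higher at 3 and lower at 4 for EZH2. Of all genes, 2574 were higher and 3637 lower in KO for H3K27me3, and 2106 higher and 4434 lower for EZH2. The median difference was 0 points for each antibody, both over the 10 genes and over all genes. The mean covered share for H3K27me3 was 1.64% in KO (0.690% over all genes) and 2.01% in WT (0.825% over all genes). For EZH2 it was 0.778% in KO (0.233% over all genes) and 1.28% in WT (0.316% over all genes). Peaks touched the gene itself at 2 genes in KO and 2 in WT for H3K27me3, against 17.1% of all genes in KO and 19.1% in WT. For EZH2 they did so at 1 gene in KO and 2 in WT, against 14.9% in KO and 22% in WT.

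The surroundings of the 10 genes differed widely in their number of peaks. Within 100 kb of the gene, the median number of H3K27me3 peaks was 10.5 in KO (2 over all genes) and 9.5 in WT (3 over all genes). The corresponding EZH2 medians were 1.5 in KO (1 over all genes) and 7.5 in WT (1 over all genes). The single genes ran from 0 to 17 H3K27me3 peaks in KO and from 0 to 22 in WT, and from 0 to 10 EZH2 peaks in KO and from 0 to 12 in WT. MYF5 and MYF6 had no H3K27me3 peak within 100 kb in KO, and MYH6 and MYH7 had none in WT. Each of these neighbouring pairs shares its surroundings and so counts 2 times in the medians. The median distance from the gene to the nearest H3K27me3 peak was 7.96 kb in KO (43.6 kb over all genes) and 5.45 kb in WT (33.6 kb over all genes). For EZH2 it was 33.8 kb in KO (79.5 kb over all genes) and 4.59 kb in WT (38.75 kb over all genes).

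**Figure D4:**
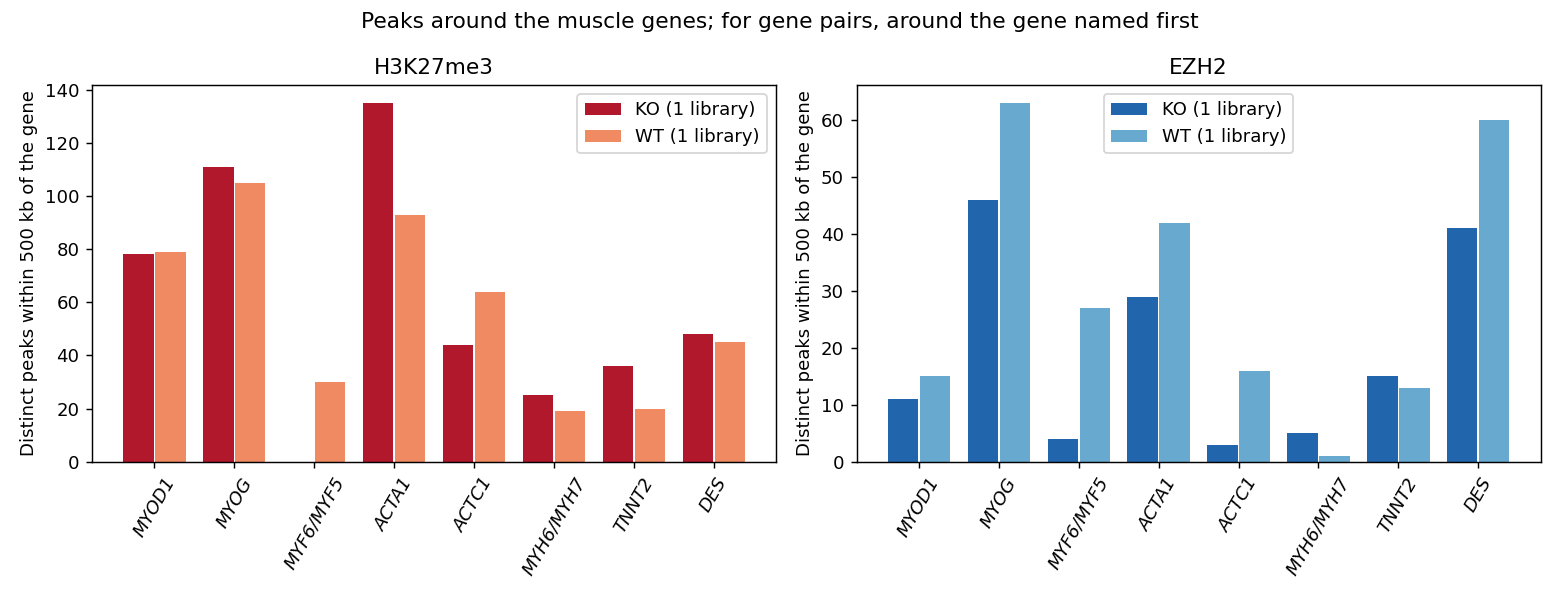
Number of distinct H3K27me3 (left) and EZH2 (right) peaks within 500 kb of each muscle gene in KO and WT, 1 library each; neighbouring genes are shown once, around the gene named first. H3K27me3 is higher in KO at 5 of the 8 stretches, by the widest margin at ACTA1 (135 in KO, 93 in WT), and absent in KO around MYF6, where WT has 30.

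Other muscle genes were examined in 6 lists. The first list holds 16 genes taken as regulators upstream of the myogenic factors. MYMK, MYMX, MEF2A, MEF2C and MEF2D among them are not strictly upstream, so the shares are not those of upstream regulators alone. Of the 16 genes, 7 (43.8%) had H3K27me3 in KO and 9 (56.2%) in WT, 7 of them in both. EZH2 was listed at 7 (43.8%) in KO and 8 (50%) in WT, 6 of them in both. MYMX had 3 H3K27me3 peaks in WT and none in KO, and MEF2C had 2 EZH2 peaks in WT and none in KO. The shares of all genes were 23.2% in KO and 26.1% in WT for H3K27me3, and 18.4% in KO and 27% in WT for EZH2. LBX1, needed by migrating limb muscle precursors, had EZH2 over 45.96% of its window in KO and 47.75% in WT, and H3K27me3 over 11.6% in KO and 8.08% in WT. PAX7, the factor of muscle stem cells, had EZH2 over 4.30% in KO and 4.59% in WT, and PAX3, its relative in the embryo, H3K27me3 over 4.25% in KO and 4.89% in WT. TCF21, which acts in facial muscle and other mesoderm, had H3K27me3 over 1.06% in KO and 8.41% in WT, and EZH2 over 1.93% in KO and 4.31% in WT. Coverage at LBX1 exceeded that of all 10 muscle genes for EZH2.

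Of 11 cardiac regulators, 4 (36.4%) had H3K27me3 in KO and 6 (54.5%) in WT, 3 of them in both. EZH2 was listed at 4 (36.4%) in KO and 7 (63.6%) in WT, 4 of them in both. Of all genes, 23.2% in KO and 26.1% in WT had H3K27me3, and 18.4% in KO and 27% in WT had EZH2. HAND1, a factor of the left ventricle, had EZH2 over 25.6% in KO and 28.1% in WT, and H3K27me3 over 9.05% in KO and 1.77% in WT. NKX2-5, the early heart homeobox factor, had H3K27me3 over 10.1% in KO and none in WT, but EZH2 over 18.7% in KO and 14.9% in WT. HEY2, a NOTCH target of the ventricle, had H3K27me3 over 17.8% in KO and 14.7% in WT, and EZH2 over 12.9% in KO and 12.5% in WT.

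Of 36 sarcomere genes, 14 (38.9%) had H3K27me3 in KO and 17 (47.2%) in WT, against 23.2% of all genes in KO and 26.1% in WT. EZH2 was listed at 9 (25%) in KO and 12 (33.3%) in WT, against 18.4% of all genes in KO and 27% in WT. TTN, the giant spring protein of the sarcomere, had 59 H3K27me3 peaks in KO and 55 in WT over 7.88% in KO and 6.60% in WT of a 291.4-kb window. NEB, the ruler of the thin filament, had 9 in KO and 45 in WT, over 1.10% in KO and 7.20% in WT, and MYBPC1, a myosin-binding protein, 3 in KO and 22 in WT, over 0.530% in KO and 7.15% in WT. EZH2 was highest at ACTN2, an alpha-actinin of heart and skeletal muscle, with 2.26% in KO and 3.56% in WT. NEB followed, with 0.0849% in KO and 1.56% in WT, and then MYL3, a ventricular light chain, with none in KO and 1.21% in WT. Long genes take in more peaks by length alone, so their peak numbers are not comparable with those of the compact actin and myogenic factor genes.

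Of 24 genes of the muscle membrane, calcium handling and metabolism, 14 (58.3%) had H3K27me3 in KO and 11 (45.8%) in WT. EZH2 was listed at 6 (25%) of them in KO and 8 (33.3%) in WT. All genes stood at 23.2% in KO and 26.1% in WT for H3K27me3, and at 18.4% in KO and 27% in WT for EZH2. GJA5, connexin 40 of the atria, had H3K27me3 over 8.42% in KO and 2.88% in WT, KCNJ2, an inward-rectifier potassium channel, over 1.34% in KO and 5.39% in WT, and NPPB, brain natriuretic peptide, over 3.08% in KO and 1.72% in WT. EZH2 was highest at KCNJ2, over 2.18% in KO and 0.819% in WT. CACNA1S, the calcium channel of skeletal muscle, followed with 1.58% in KO and 0.193% in WT, and GJA5 with 1.355% in KO and 0.637% in WT. Of the 24 genes, 3 had EZH2 in WT alone and 1 in KO alone. Of 9 smooth muscle genes, 2 (22.2%) had H3K27me3 in KO and 3 (33.3%) in WT, and 3 (33.3%) had EZH2 in KO and 4 (44.4%) in WT. Among the 9, MYH11, smooth muscle myosin, had H3K27me3 over 2.13% in KO and 0.407% in WT. LMOD1, leiomodin, had EZH2 over no part of its window in KO and 1.13% in WT.

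The last list holds 11 relatives of these genes that work outside muscle, though MYL6 and MYL9 among them also serve smooth muscle. Of these, among them the cytoplasmic actins ACTB and ACTG1, the non-muscle myosin MYH9 and the intermediate filament gene VIM, only MYH10 (9.09%) was marked. It had H3K27me3 over 0.159% of its window in KO and 0.120% in WT, and EZH2 over 0.105% in KO and none in WT. Of all genes, 23.2% in KO and 26.1% in WT had H3K27me3, and 18.4% in KO and 27% in WT had EZH2. With 11 genes, such shares would give only a few marked genes. Many genes of the muscle lists were also without a peak. No test was made between lists.

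**Figure D5:**
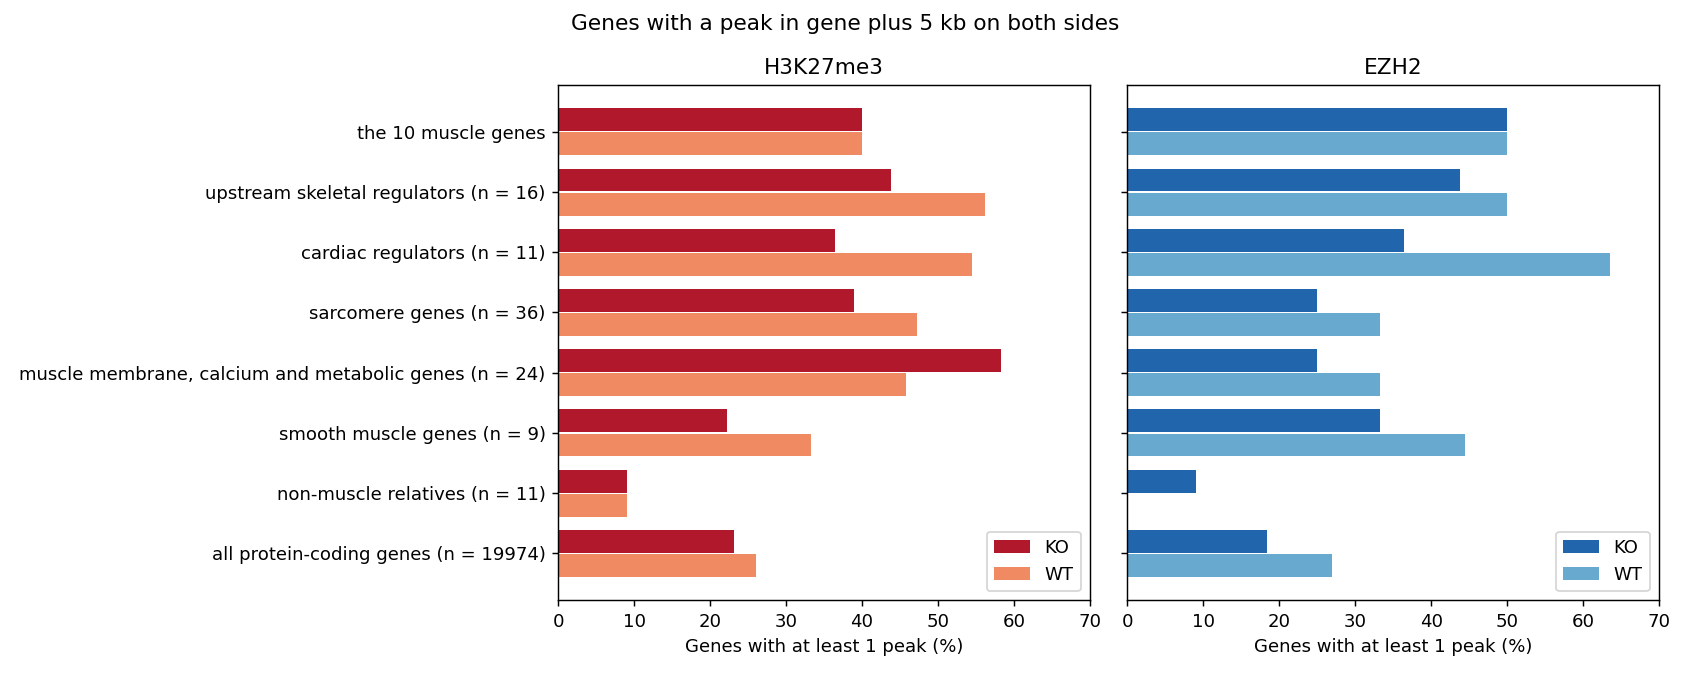
Percent of genes with at least 1 peak in the gene plus 5 kb on both sides, in KO and WT (1 library each), for the 10 muscle genes, the 6 other lists and all 19974 protein-coding genes. The 10 muscle genes stand at 4 of 10 for H3K27me3 and 5 of 10 for EZH2 in KO and in WT, and the non-muscle relatives at 9.09% or 0.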

How the data were processed

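The 4 ChIP libraries had a peak list each; the 2 input libraries served as controls of the lists and were not analysed here. The submitters' processing notes name cutadapt 1.9.3 and Bowtie2 2.2.4 and the build hg38; the sources used here give neither the peak caller nor the depths. Each deposited list has 6 columns and no header: position, name, width in bp and the authors' score for each peak. Peaks stood on up to 81 identical lines and were counted once; coordinates were read as 1-based.

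Peaks were assigned to genes of the RefSeq table (GRCh38.p14) by an overlap of 1 bp or more with the gene plus 5 kb. Counts, covered length and distances were computed with Python 3.11.15, NumPy 2.4.6 and pandas 2.3.3 and drawn with matplotlib 3.10.9. The routine was checked with planted peaks: 200 of 200 genes were found among 19974, with no false call. The 10 genes, the lists and the settings were chosen with earlier results of these data known. By rule, all 10 genes were named, and of each other list the 3 with the largest covered share per antibody (a selection is printed). The 1537-kb stretch and the 500-kb counts were chosen after values were seen.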

Additional observations from a re-analysis of the deposited data

How the results depend on the processing

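There are no replicates to leave out. No paired analysis was possible because each group has 1 library. Over 8 alternative settings, 36 of 64 counts stayed within 1.5 times those reported. Counts that did not are given as genes, then distinct peaks. With a score of 7 or more, H3K27me3 in KO had 1 and 1, EZH2 in KO 1 and 1, and EZH2 in WT 3 genes. With the WT list trimmed to the size of the KO list by score, EZH2 in WT had 3 genes. Equal scores were ordered by chromosome and position, so peaks at the score of the cut were kept or dropped by place. In the gene body alone, H3K27me3 had 2 and 3 in KO and 2 and 3 in WT, and EZH2 1 and 2 in KO and 2 and 2 in WT. With 2 kb on both sides, EZH2 had 3 genes in KO and 3 in WT, and H3K27me3 5 peaks in WT. With 10 kb, H3K27me3 had 17 peaks in KO, and 7 genes and 18 peaks in WT, and EZH2 12 peaks in WT. With peaks of 300 bp or wider, H3K27me3 had 3 peaks in KO, and 2 and 4 in WT, and EZH2 1 and 1 in KO and 2 and 3 in WT. With 5 kb around both gene ends, or a peak's midpoint in place of any overlap, all 8 counts stayed within 1.5 times. The score limits every KO call except those at MYOD1 (H3K27me3) and TNNT2 (EZH2). As read depth is unknown, a gene without a peak is only one where none was listed.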

Other observations

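The stretch around MYF6 and MYF5 ranked high among stretches of the genome without KO H3K27me3 peaks. Between neighbouring peaks of the KO list there were 69809 such stretches on chromosomes 1 to 22 and X, and only 4 held 169 or more WT peaks. The other 3 lay on chromosome 7 and held 251, 220 and 198. The converse was rarer: among 93068 stretches between neighbouring WT H3K27me3 peaks, the highest number of KO peaks was 57, on chromosome 20, and the counts of stretches with 50 or more peaks of the other genotype were 50 without KO peaks and 1 without WT peaks. For EZH2 the highest number was 36 in stretches without KO peaks, on chromosome 12, and 36 in stretches without WT peaks. The former stretch ran from 89105067 to 90075193 on chromosome 12 and the latter from 124905647 to 143349867 on chromosome 1. The H3K27me3 stretch on chromosome 20 ran from 27081068 to 27386769. Regions at centromeres were not set apart, so the 2 directions may not compare like places. The WT lists are the longer ones, with 93095 peaks against 69840 for H3K27me3 and 30734 against 19566 for EZH2. Counts in the 2 kinds of stretch were not corrected for list size.

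CALD1, of the smooth muscle list, encodes caldesmon, which has a smooth muscle form and a form found in other cells. It lies on chromosome 7 and had 0 H3K27me3 peaks in KO and 14 in WT, over none and 2.33% of its window. EZH2 covered 0.176% in KO and 0.439% in WT.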
